A study of Rattus norvegicus with 6 samples.

Results

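The 6 protein-coding genes of the rat mitochondrial chromosome that do not encode complex I subunits were examined in neonatal rat cardiomyocytes. They were taken as the rows of the deposited table that lie on chromosome MT and whose names do not start with Mt-nd, which gave 6 of 22250 genes in all: Mt-co1, Mt-co2, Mt-co3, Mt-atp6, Mt-atp8 and Mt-cyb. All 6 passed the filter on low counts. The cells were freed by collagenase digestion from the hearts of 1-day-old wild-type Sprague-Dawley rats and kept in culture medium with 10% fetal bovine serum. One group of 3 libraries came from cells given the solvent DMSO and the other group of 3 from cells given 3Cl-HBA at 40 µM, both for 48 h. The series title names activation of hydroxycarboxylic acid receptor 1, a G-protein-coupled receptor for lactate, as the question. The labels do not say whether the numbered libraries came from separate cultures or animals, so p-values measure only the spread between these samples, which may be technical.

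Mitochondria keep a small circular genome whose protein-coding genes all specify parts of the machinery of oxidative phosphorylation. Long RNAs are transcribed from this genome and then cut, mostly at the transfer RNAs that lie between the coding genes, into separate messenger RNAs, so that genes of one strand begin as one RNA and their final levels depend on processing and stability as well as on transcription. Heart muscle cells are rich in mitochondria and in these RNAs. Mt-co1, Mt-co2 and Mt-co3 encode the catalytic core of cytochrome c oxidase (complex IV), which passes electrons to oxygen. Mt-cyb encodes cytochrome b of complex III, which passes electrons from ubiquinol to cytochrome c. Mt-atp6 and Mt-atp8 encode membrane subunits of ATP synthase (complex V), and mammals carry both on one messenger RNA with overlapping reading frames.

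Library totals were 13240800 to 14499065 reads in DMSO and 14607337 to 17202191 reads after 3Cl-HBA, with the treated libraries all the deeper ones. Markers of heart muscle cells summed to 28507 to 30256 CPM (counts scaled to a common library size) in DMSO and 28616 to 29027 CPM after 3Cl-HBA, with none of 13 at 0. Of these markers 4 of 13 had a log2 fold change above 0, and 3, named after their values were seen, had an edgeR unadjusted p under 0.05, with log2 fold changes of -0.17 for Ryr2, -0.10 for Myh7 and -0.14 for Myl2. Over all genes tested, 711 of 13903 had an edgeR unadjusted p under 0.05, in either direction. None of the 13 had an edgeR adjusted p under 0.05. In 3 of the 13, not matched here to the 3 named ones, every treated library lay below every DMSO library. The share of all genes with that pattern was not taken, so this count cannot set these markers apart from other genes. Their part in the values of the mitochondrial genes was not tested. The 8 matched fibroblast markers summed to 15341 to 16232 and 15431 to 15746 CPM, also with none at 0. In such bulk samples fewer mitochondria-rich cells and less of an RNA per cell cannot be told apart. DMSO replicate 1 and 3Cl-HBA replicate 2 stood apart from the other libraries in Mt-nd4, a complex I gene on the same chromosome, with 216 and 295 CPM against 686 to 753 CPM in the other 4. The same libraries gave the lowest shares of reads outside the mitochondrial chromosome to genes of at most 1000 bases, 6.46% and 6.40% against 6.69% to 7.04%. For genes of at least 5000 bases only DMSO replicate 1 stood apart, with the highest share, 23.15%. There 3Cl-HBA replicate 2, at 22.43%, lay inside the range of the other 4, 21.55% to 22.67%. Results are therefore also given without DMSO replicate 1 and 3Cl-HBA replicate 2 where that matters.

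The 6 genes lie in the order Mt-co1, Mt-co2, Mt-atp8, Mt-atp6, Mt-co3 and, beyond a run of complex I genes, Mt-cyb. All are on the plus strand. Coordinates are those of the deposited table, on a build that is not given in the sources used here. Mt-co1 (ENSRNOG00000034234) spans MT:5323-6867, Mt-co2 (ENSRNOG00000030371) MT:7006-7689, Mt-atp8 (ENSRNOG00000033299) MT:7758-7961, Mt-atp6 (ENSRNOG00000031979) MT:7919-8599, Mt-co3 (ENSRNOG00000030700) MT:8599-9382 and Mt-cyb (ENSRNOG00000031766) MT:14136-15278. The authors' gene lengths equal these spans, 1545, 684, 204, 681, 784 and 1143 bases. Mt-atp8 and Mt-atp6 share 43 bases, Mt-atp6 and Mt-co3 share 1 base, and the other 3 genes share none with another gene of the chromosome in the table.

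Levels per base differed widely between the genes and kept nearly the same order in all libraries. On the deposited FPKM scale, which divides reads by gene length and library total, Mt-co1 was highest of all genes in the table in every library, at 20128 ± 597 FPKM in DMSO and 20684 ± 1306 FPKM after 3Cl-HBA (SD, n = 3 here and below). Mt-co3 came second of all genes in every library, with 11529 ± 105 and 11996 ± 141 FPKM. Mt-cyb, at 7167 ± 116 and 7514 ± 729 FPKM, and Mt-co2, at 7065 ± 53.4 and 7628 ± 346 FPKM, held the next places, between 3 and 4. Mt-atp6 had 4221 ± 197 and 4602 ± 285 FPKM and ranked between 6 and 8.

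Most neighbours in this order were apart by more than the spread between libraries. Within a library Mt-co1 exceeded Mt-co3 by 1.63 to 1.87 times, Mt-co3 exceeded Mt-co2 by 1.502 to 1.669 times, and Mt-cyb exceeded Mt-atp6 by 1.58 to 1.75 times. Mt-co2 and Mt-cyb were not separated. Their within-library ratio ran from 0.955 to 1.07 and was above 1 in 2 of 6 libraries. The 3 core subunits of complex IV thus had unequal deposited FPKM, Mt-co1 above Mt-co3 above Mt-co2 in each library. The part of the authors' alignment and counting in such differences between genes was not tested.

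**Figure D1:**
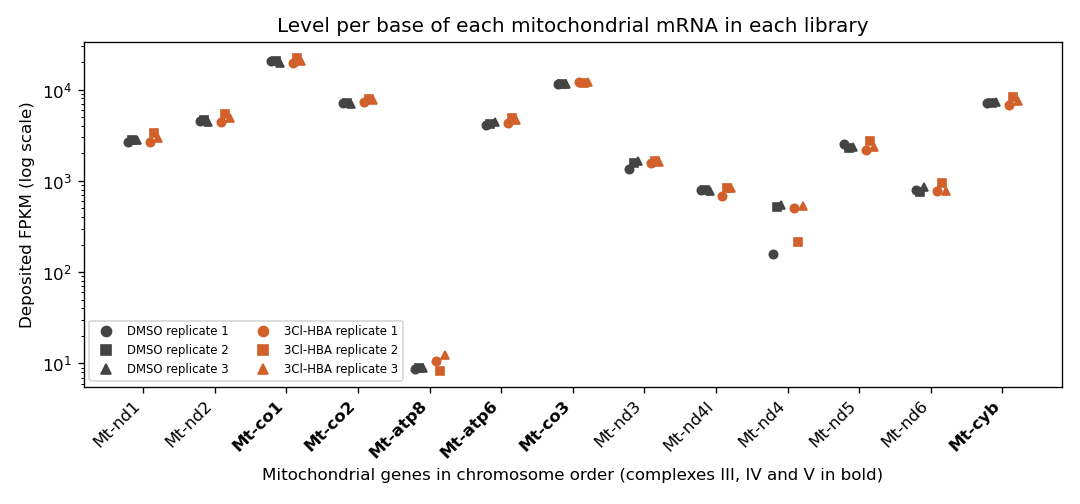
Deposited FPKM (log axis) of the 13 mitochondrial genes in chromosome order, 1 point per library, with names of the complex III, IV and V genes in bold. Mt-co1 is highest, with a DMSO mean of 20128 FPKM, Mt-atp8 has a DMSO mean of 8.82 FPKM between far higher neighbours, and Mt-nd4 has 2 low libraries, DMSO replicate 1 and 3Cl-HBA replicate 2.

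Steps in level between adjacent genes did not follow their order along the chromosome. Mt-co1 was 4.10 to 4.48 times the complex I gene Mt-nd2 just before it and 2.61 to 2.90 times Mt-co2 just after it. Mt-co3 was 2.44 to 2.85 times Mt-atp6, the gene it abuts, and 6.93 to 8.58 times Mt-nd3, the complex I gene that follows. Mt-cyb, the last coding gene, was 2.76 to 3.18 times Mt-nd5. The only gene of the opposite strand, Mt-nd6, was lower than Mt-cyb by 8.59 to 9.80 times. All of these are FPKM ratios within a library over the 6 libraries.

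Mt-atp8 stood far below every other mitochondrial gene. It was counted 25, 26 and 24 times in DMSO and 32, 29 and 40 times after 3Cl-HBA, where Mt-atp6, which shares its messenger RNA as background knowledge has it, had 38407 to 56789 reads. The 24 reads of DMSO replicate 3 have an exact 95% Poisson interval of 15.4 to 35.7, and the 40 reads of 3Cl-HBA replicate 3 one of 28.6 to 54.5, for counting error only. Per base of gene length the Mt-atp6 count was 375 to 587 times that of Mt-atp8. Counted only over the bases that no other mitochondrial gene covers, 637 for Mt-atp6 and 161 for Mt-atp8, with the reads unchanged, it was 316 to 495 times.

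Other short mitochondrial genes did not show so low a level. Mt-nd4l, with 297 bases, was 63.3 to 101 times and Mt-nd3, with 348 bases, 130 to 197 times Mt-atp8 in FPKM. Among all 957 genes of at most 348 bases in the table, 376 had reads, with a median of 0.948 FPKM, and 85 were above the mean of 9.66 FPKM of Mt-atp8. In the whole table Mt-atp8 ranked between 6172 and 7753. The authors' rule for fragments that touch 2 genes or extend past a short one is not given in the sources used here, and its part in the low count was not tested. The Mt-atp8 value is therefore given as counted and not as the level of the shared messenger RNA.

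After 3Cl-HBA no gene of the 6 passed the test for a difference from DMSO. Across the 13903 genes that edgeR's quasi-likelihood test covered, a Benjamini-Hochberg adjusted p under 0.05 was reached by 0, or 0% of those tested, and an unadjusted p under 0.05 by 711. DESeq2, run without this filter on 18107 genes, also called 0, with 405 at an unadjusted p under 0.05. So did limma-voom on 13903 genes, with 704 at an unadjusted p under 0.05. With 1 library left out edgeR called between 0 and 8 genes, the most without DMSO replicate 3, and 0 of them were on the mitochondrial chromosome. The lowest edgeR adjusted p among the 6 was 0.959. The values of each gene follow by complex, as CPM on library totals scaled by edgeR's trimmed mean of M-values, and a positive log2 fold change means more after 3Cl-HBA.

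Mt-co1, the largest catalytic subunit of complex IV, had 31517, 31582 and 30126 CPM in DMSO replicates 1 to 3 and 30163, 34390 and 31401 CPM after 3Cl-HBA. The groups overlapped, and 3Cl-HBA replicate 2 was the one library above all others. Its log2 fold change was 0.042 (SE 0.040, edgeR adjusted p 0.984), and it was -0.014 without 3Cl-HBA replicate 2, 0.016 without DMSO replicate 3 and 0.082 without 3Cl-HBA replicate 1.

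Mt-co2, which holds the copper center that takes electrons from cytochrome c, had 4808, 4862 and 4818 CPM in DMSO and 4924, 5417 and 5325 CPM after 3Cl-HBA. Every treated library lay above every DMSO library, the first of them by little. The log2 fold change was 0.11 (SE 0.040, edgeR unadjusted p 0.0072, adjusted p 0.959). It stayed above 0 with each library left out, from 0.085 to 0.15.

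Mt-co3, the third core subunit of complex IV, gave the tightest groups, 9000, 9106 and 8993 CPM in DMSO and 9417, 9328 and 9489 CPM after 3Cl-HBA. Again the groups did not overlap. The gap between the group means, with SDs of 63.0 and 80.9 CPM, corresponded to a log2 fold change of 0.059 (SE 0.037, edgeR unadjusted p 0.118, adjusted p 0.980). The SE draws each gene's variance toward that of other genes and is wider than these replicates alone would give.

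Mt-cyb, the only mitochondrially encoded subunit of complex III, had 8052, 8149 and 8360 CPM in DMSO and 7720, 9474 and 8597 CPM after 3Cl-HBA. The treated libraries spread on both sides of the DMSO range, with a coefficient of variation of 9.70% in FPKM against 1.61% in DMSO. The log2 fold change of 0.071 (SE 0.054, edgeR adjusted p 0.984) was -0.0050 without 3Cl-HBA replicate 2 and 0.14 without 3Cl-HBA replicate 1.

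Mt-atp6, the proton channel subunit of complex V, had 2747, 2842 and 3029 CPM in DMSO and 2907, 3319 and 3185 CPM after 3Cl-HBA. The lowest treated library lay within the DMSO range and the other 2 above it. Its log2 fold change was 0.13 (SE 0.045, edgeR unadjusted p 0.0073, adjusted p 0.959). With 1 library left out it ran from 0.085, without 3Cl-HBA replicate 2, to 0.18, without 3Cl-HBA replicate 1. It was 0.054 without both 3Cl-HBA replicate 2 and DMSO replicate 1. Mt-atp8, a small subunit of the same membrane part, had 1.79, 1.79 and 1.82 CPM in DMSO and 2.18, 1.69 and 2.55 CPM after 3Cl-HBA. The groups overlapped, and at 24 to 40 reads the log2 fold change of 0.25 (SE 0.30, edgeR adjusted p 0.986) was smaller than its SE. It was 0.39 without 3Cl-HBA replicate 2 and 0.098 without 3Cl-HBA replicate 3.

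**Figure D2:**
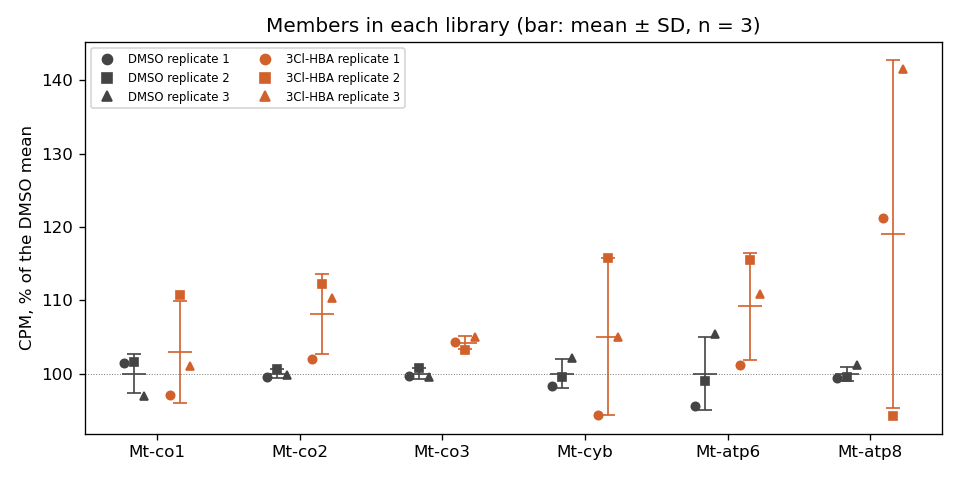
CPM of the 6 genes in each library as a percentage of the gene's DMSO mean, with bars for the group mean ± SD (n = 3). Groups are separate for Mt-co2 and Mt-co3 and overlap for the other 4, and 3Cl-HBA replicate 2 (square) is the highest library for Mt-co1, Mt-co2, Mt-cyb and Mt-atp6 and the lowest treated one for Mt-co3 and Mt-atp8.

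Read together, the 6 genes lay slightly higher after 3Cl-HBA by amounts that the test did not separate from replicate error. All 6 log2 fold changes were above 0, against 49.8% of all genes tested, with a median of 0.092 against -0.00051 over all genes. Mt-co2 and Mt-co3 had every treated library above every DMSO library, a pattern found in 5.24% of the genes tested. Mt-co2 and Mt-atp6 were higher with an unadjusted p under 0.05, as were 2.52% of all genes. The 6 genes share a precursor RNA and a library, so they are not 6 independent observations. Without 3Cl-HBA replicate 2, 4 of the 6 were above 0, the median was 0.075 and 0 had an unadjusted p under 0.05. Without 3Cl-HBA replicate 1, 6 were above 0, the median was 0.15 and 4 had an unadjusted p under 0.05, namely Mt-co1, Mt-co2, Mt-cyb and Mt-atp6. Over all genes tested, an edgeR unadjusted p under 0.05 in either direction was reached by 605 of 14051 without 3Cl-HBA replicate 2. Without 3Cl-HBA replicate 1 it was reached by 717 of 14057.

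Intervals of the fold were narrow for 5 of the genes. They measure only the spread between these samples, which may be technical, and do not bound an effect of 3Cl-HBA in other cultures. The 95% intervals of the fold, 3Cl-HBA over DMSO, were 0.973 to 1.09 for Mt-co1, 1.02 to 1.14 for Mt-co2 and 0.989 to 1.10 for Mt-co3. They were 0.971 to 1.14 for Mt-cyb and 1.03 to 1.16 for Mt-atp6. For Mt-atp8 the interval was wider, 0.776 to 1.81. None of these intervals is adjusted for testing many genes.

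**Figure D3:**
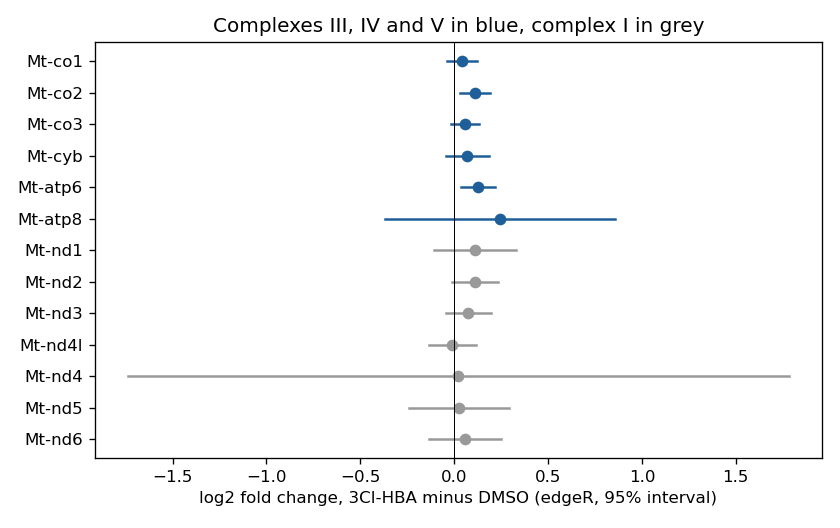
Log2 fold changes of the 13 mitochondrial genes, 3Cl-HBA minus DMSO, with 95% intervals derived from edgeR's quasi-likelihood F statistic on 3 libraries per group. The 5 abundant genes of complexes III, IV and V lie between 0.042 and 0.13 with short intervals, and the intervals of Mt-atp8 and Mt-nd4 are wide.

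As a share of all reads, the 6 genes took 5.63%, 5.67% and 5.52% in DMSO replicates 1 to 3 and 5.54%, 6.16% and 5.79% after 3Cl-HBA. The means were 5.60% ± 0.0789 and 5.83% ± 0.312, a difference of 0.227 percentage points (exact two-sided permutation test, p = 0.3, where 3 against 3 cannot go below 0.1). The difference was 0.0620 percentage points without 3Cl-HBA replicate 2 and 0.372 without 3Cl-HBA replicate 1. Complex IV genes made up most of this share, 4.50% ± 0.102 in DMSO and 4.66% ± 0.211 after 3Cl-HBA, and Mt-co1 alone gave 54.1% to 56.2% of the reads of the 6 genes. Complex III took 0.819% ± 0.0132 and 0.859% ± 0.0833, and complex V 0.288% ± 0.0134 and 0.314% ± 0.0194.

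Ratios between subunits within a library do not depend on the scaling between libraries, and the groups overlapped in all 7. The exact permutation test of 3 against 3 libraries cannot go below p = 0.1. No ratio could therefore pass a threshold of 0.05, and the p-values below do not show that the ratios were unchanged. Within complex IV, the read ratio of Mt-co2 to Mt-co1 was 0.153, 0.154 and 0.160 in DMSO and 0.163, 0.158 and 0.170 after 3Cl-HBA. The difference of the log2 ratios was 0.072 (exact two-sided permutation p = 0.2), and 0.045 without 3Cl-HBA replicate 3. The ratio of Mt-co3 to Mt-co1 was 0.286, 0.288 and 0.299 in DMSO and 0.312, 0.271 and 0.302 after 3Cl-HBA, a log2 difference of 0.019 (exact permutation p = 0.9) that was -0.022 without 3Cl-HBA replicate 1.

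The ratio of Mt-co3 to Mt-co2 was nearly the same in the DMSO libraries, 1.872, 1.873 and 1.867, and more spread after 3Cl-HBA, at 1.913, 1.722 and 1.782. Its log2 difference was -0.052 (exact permutation p = 0.4), and it was -0.019 without 3Cl-HBA replicate 2 and -0.095 without 3Cl-HBA replicate 1. In 3Cl-HBA replicate 2 Mt-co3 was low relative to both other complex IV subunits, giving the lowest ratio of the 6 libraries in each case.

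Across complexes, Mt-atp6 to Mt-co1 was 0.0872, 0.0900 and 0.101 in DMSO and 0.0964, 0.0965 and 0.101 after 3Cl-HBA, a log2 difference of 0.086 (exact permutation p = 0.3) that was 0.044 without DMSO replicate 1 and 0.15 without DMSO replicate 3. DMSO replicates 1 and 2 lay below the other 4 libraries. Mt-cyb to Mt-co1 was 0.255 to 0.278 in DMSO and 0.256 to 0.275 after 3Cl-HBA, with a log2 difference of 0.026 (exact permutation p = 0.9). Mt-atp8 to Mt-atp6 was 0.000600 to 0.000651 in DMSO and 0.000511 to 0.000799 after 3Cl-HBA, with a log2 difference of 0.11 (exact permutation p = 0.7) that was -0.018 without 3Cl-HBA replicate 3. With adjustment over the 7 ratios each p became 0.9.

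**Figure D4:**
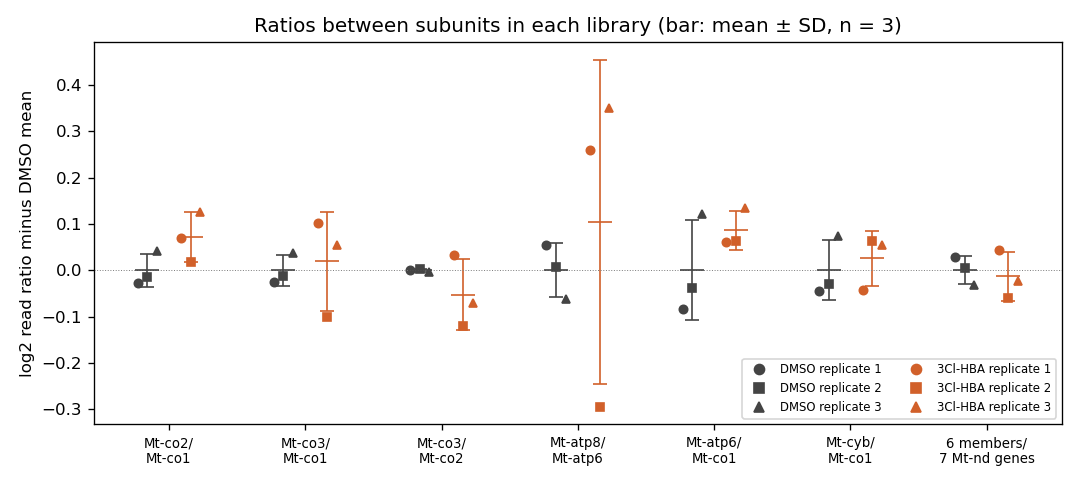
Log2 read ratios between subunits in each library, relative to the DMSO mean of that ratio, with bars for the group mean ± SD (n = 3). The groups overlap in all 7 ratios, and the widest treated spread is that of Mt-atp8 to Mt-atp6, from 0.000511 to 0.000799 as plain ratios.

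The proportion of the 6 genes to the 7 complex I genes of the same chromosome differed between the groups by less than the spread. They gave 80.3% to 80.9% of the mitochondrial reads in DMSO and 79.9% to 81.1% after 3Cl-HBA. The read ratio of the 6 to the 7 was 4.16 ± 0.0865 in DMSO and 4.12 ± 0.153 after 3Cl-HBA, a log2 difference of -0.013 (exact two-sided permutation p = 0.8). It was 0.011 without 3Cl-HBA replicate 2 and 0.00099 without DMSO replicate 1. With Mt-nd4 left out of the complex I sum, an alternative chosen after seeing the data, this difference was -0.013. The Mt-nd genes had a median log2 fold change of 0.057, with 6 of 7 above 0 and 0 called, and the median was -0.027 without DMSO replicate 1 and 3Cl-HBA replicate 2.

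Complexes III, IV and V are completed by subunits encoded in the nucleus. These had far lower deposited FPKM than the mitochondrial subunits other than Mt-atp8. FPKM rests on the authors' gene lengths and counts, whose part in these ratios was not tested. Mt-cyb had 33.1 ± 0.706 times the median FPKM of the 9 tested nuclear subunits of complex III in DMSO and 34.8 ± 4.97 times after 3Cl-HBA. In complex IV, with 13 tested nuclear subunits, the same ratio was 61.5 ± 2.72 and 59.1 ± 7.45 for Mt-co1, 35.2 ± 0.759 and 34.2 ± 1.80 for Mt-co3, and 21.6 ± 0.433 and 21.8 ± 2.06 for Mt-co2. Mt-atp6 had 18.3 ± 0.515 and 20.0 ± 1.82 times the median of the 17 tested nuclear subunits of complex V. No tested nuclear subunit of complex III exceeded Mt-cyb, and none of complex IV exceeded Mt-co1, Mt-co2 or Mt-co3. In complex V none exceeded Mt-atp6, while 16 of 17 nuclear subunits exceeded Mt-atp8.

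**Figure D5:**
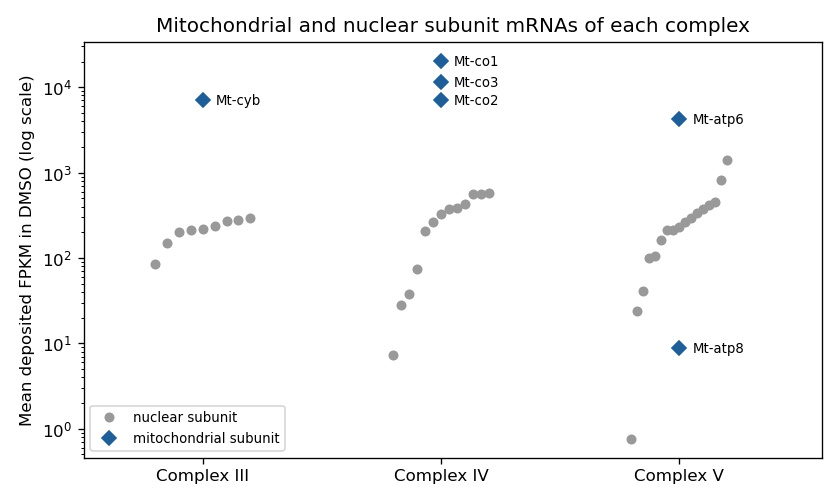
Mean deposited FPKM in DMSO (log axis) of mitochondrial subunits (diamonds) and tested nuclear subunits (circles, sorted by level) of complexes III, IV and V. The mitochondrial subunits lie above all nuclear subunits of their complex except Mt-atp8, at 8.82 FPKM.

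Among the nuclear partners 0 were called, and their medians lay close to 0. Of the complex III subunits 4 of 9 had positive log2 fold changes, and the median was -0.0097, or between -0.022 and 0.014 with 1 library left out, the extremes without DMSO replicate 1 and without DMSO replicate 3. The core proteins Uqcrc2 and Uqcrc1 had log2 fold changes of 0.026 and -0.031. Uqcr10, a small subunit named after its value was seen, was lower in all treated libraries, at 72.9 ± 4.03 CPM against 83.1 ± 4.23 CPM in DMSO (log2 fold change -0.19, SE 0.063, edgeR adjusted p 0.959). Of the complex IV subunits 7 of 13 were above 0, with a median of 0.0022, and the abundant subunits Cox4i1 and Cox6a1 had -0.034 and 0.0045. The median for complex IV moved to 0.050 without 3Cl-HBA replicate 2 and to -0.072 without 3Cl-HBA replicate 1.

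For complex V 6 of 17 were above 0, with a median of -0.0099 that was -0.049 without 3Cl-HBA replicate 1 and 0.012 without DMSO replicate 3. The catalytic subunits Atp5f1b and Atp5f1a had log2 fold changes of -0.0056 and -0.0099. The summed CPM of the nuclear complex V subunits was lowest in 3Cl-HBA replicate 2 and DMSO replicate 1, at 6060 and 6134 CPM, against 6360 to 6635 CPM in the other 4 libraries. The same held for complex IV, at 1973 and 2059 against 2127.5 to 2221 CPM. In 3Cl-HBA replicate 2 the mitochondrial share was at its highest while these nuclear sums were at their lowest, and in DMSO replicate 1 the nuclear sums were low with a mitochondrial share inside the range of the other libraries. What part the short length of these nuclear genes has in that was not tested.

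Genes that build the complexes and that copy, transcribe and process mitochondrial nucleic acids showed no calls either. Of 29 tested assembly factors 14 had positive log2 fold changes, and the median was -0.0020. With 1 library left out this median lay between -0.019, without 3Cl-HBA replicate 3, and 0.039, without 3Cl-HBA replicate 2. Coa5, needed for complex IV assembly, had 150 and 149 CPM, and Oxa1l, which inserts mitochondrially made proteins into the inner membrane, had 126 and 125 CPM in DMSO and after 3Cl-HBA. Of 29 tested genes of mitochondrial DNA and RNA machinery 17 were above 0, with a median of 0.028 that was 0.052 without 3Cl-HBA replicate 1 and 0.016 without DMSO replicate 3. Lrpprc, an RNA-binding protein that stabilizes mitochondrial messenger RNAs, had 189 and 193 CPM (log2 fold change 0.028, SE 0.051). The DNA polymerase Polg had 92.3 and 85.9 CPM (log2 fold change -0.10, SE 0.059, edgeR adjusted p 0.9747).

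Sums over markers of other cells overlapped between the groups for all lists but one. Summed CPM was 2636 to 2885 in DMSO and 2713 to 2743 after 3Cl-HBA for 8 smooth muscle and pericyte markers, 542 to 625 and 564 to 591 for 7 endothelial markers, and 327 to 355 and 356 to 365 for 8 macrophage and leukocyte markers. The sum of the last list was above every DMSO library in each treated library, by a small margin. Of its 8 genes 8 had positive log2 fold changes, against 49.8% of all genes tested. Their median was 0.11, or 0.054 without DMSO replicate 2. For 5 erythroid markers the sums were 34.3 to 36.1 and 35.1 to 45.7 CPM. No tested marker of these lists had an edgeR adjusted p under 0.05 with all libraries, and none was at 0 in all libraries. The hemoglobin gene Hba-a1, which can share reads with near-identical copies and was named after its value was seen, had a log2 fold change of 0.49 (SE 0.12, edgeR adjusted p 0.845, the lowest of all genes tested) and was called without 3Cl-HBA replicate 3. The erythroid gene Alas2 was too low to be tested. Their part in the values of the mitochondrial genes was not tested.

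Averaged over the 6 genes, log2 CPM came to 10.94, 10.96 and 10.97 in DMSO and to 11.00, 11.07 and 11.11 after 3Cl-HBA, by replicate number. In this mean Mt-atp8, with its few reads, weighs as much as Mt-co1. Among 10661 genes outside the chromosome with a symbol and at least 5 CPM, those whose log2 CPM followed it most closely over the 6 libraries were Pgghg, Ecd, Snai2, Tmem168 and Bbs4, with Pearson r of 0.9747 to 0.9827. With 6 points and so many genes compared, values of this size are a description of these libraries only. The genes themselves followed each other unevenly, with r to the mean of the other 5 of 0.93 for Mt-co2, 0.80 for Mt-co3, 0.78 for Mt-atp6, 0.47 for Mt-cyb, 0.31 for Mt-co1 and 0.040 for Mt-atp8. All r share library depth and scaling.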

How the data were processed

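Total RNA was sequenced after removal of ribosomal RNA (Illumina reads), per the labels' protocols. The deposited table holds raw read counts per gene, and FPKM that, per the file headers and values, the authors made from count, gene length and library total (largest relative gap 8.2e-08). Gene lengths and positions are the authors' own. DESeq2 was the authors' tool, per the labels' protocols, with genome build, aligner, counter and strand setting not given in the sources used here. Where strand was not used in counting, reads of overlapping genes on opposite strands cannot be told apart.

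Counts were filtered with edgeR's filterByExpr (minimum count 10), which left 13903 of 22250 genes, scaled by trimmed mean of M-values and tested with edgeR 4.0.16 (quasi-likelihood F-test, R 4.3.3, Benjamini-Hochberg adjustment over all genes tested, threshold 0.05). The script was tested on simulated data. Log2 CPM used a prior count of 2. The read share and 7 ratios were compared by exact two-sided permutation tests (scipy 1.17.1). Poisson intervals cover counting error only, since reads carry no molecular identifiers here. No libraries agreed within sampling noise. Alternatives used DESeq2 1.42.0, limma 3.58.1, other scalings, no filter, a replicate block and each library left out.

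The members and lists were chosen with earlier results of these data known. Of 163 listed symbols 154 matched the table, 1 by a synonym. Where 2 rows shared a name, the row with more reads was taken. Named were the 6 genes, the 2 members of each nuclear list with the highest mean CPM, any called member, and the 5 genes with a symbol and a mean of at least 5 CPM most correlated with the mean of the 6. Uqcr10, Hba-a1, Ryr2, Myh7, Myl2 and Alas2 fall outside this rule and were named after their values were seen.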

Additional observations from a re-analysis of the deposited data

How the results depend on the processing

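Over 14 alternatives per gene, no adjusted p of the 6 genes was under 0.05 (range 0.230 to 1.00, edgeR, DESeq2 or limma-voom). All 6 log2 fold changes stayed above 0 under each alternative except without 3Cl-HBA replicate 2 and without both that library and DMSO replicate 1, where 4 did. Mt-co1 was then -0.014 and -0.0027, and Mt-cyb -0.0050 and -0.016. With 1 library left out, Mt-co1 ran from -0.014 to 0.082 and Mt-cyb from -0.0050 to 0.14. The ratio of Mt-co3 to Mt-co1 ran from -0.022 to 0.079 in log2 difference, that of Mt-atp8 to Mt-atp6 from -0.018 to 0.31, and that of the 6 genes to the Mt-nd genes from -0.042 to 0.011. Without DMSO replicate 1 and 3Cl-HBA replicate 2, chosen after seeing the data, these last 2 were 0.33 and 0.025, and Mt-cyb to Mt-co1, from 0.0036 to 0.063 with 1 library left out, was -0.016. The cause was not tested. Over all genes edgeR called 2 without the filter on low counts, 2 without DMSO replicate 1 and 3Cl-HBA replicate 2, and 0 to 8 with 1 library left out. None of these lay on the mitochondrial chromosome.

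The labels do not say whether replicate numbers pair the samples. Deviations of same-numbered libraries from their group means correlated at -0.069, -0.044 and -0.045, and those of differently numbered ones at -0.015 to 0.060. These values cannot tell whether same-numbered libraries shared a culture. With the number as a replicate block, 0 genes passed in edgeR, 604 had an unadjusted p under 0.05, and the median of the 6 genes was 0.089. Among the 6, counting error is large for Mt-atp8 alone, at 24 to 40 reads.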
